A study of Ovis aries with 40 samples.

Results

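The genes described here are FOSL2 and 7 transcription factors and regulators of the immediate early response, namely FOS, JUN, JUNB, EGR1, ATF3, MYC and IER2. They were selected on their gene symbols, with earlier results of the comparison between high and low muscling in the same animals known, so their differences and calls between those groups are given as a description from which nothing is read. All 8 were represented on the array, by 18 of the 13292 probe sets with a single gene symbol, and they stood for 8 of 9155 genes. With 1 probe set per gene, the one with the highest mean, all 8 were among the 6360 genes taken as detected. The detection limit was a mean of 61.8, which is the middle value of the means of all non-control probe sets. FOSL2 passed this limit only narrowly, with a mean of 63.3. It passed through high muscling, where its mean was 85.6, against 43.1 in low muscling.

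The samples were longissimus muscle (LM, also called LD) of 40 Poll Dorset sheep at 78 weeks of age, dissected within 15 minutes of euthanasia and hybridised 1 animal to 1 GeneChip Bovine Genome array. The 19 animals of high muscling were progeny of 3 sires with a high estimated breeding value for the depth of the eye muscle (8 from sire 11, 7 from sire 2 and 4 from sire 7). The 21 animals of low muscling were progeny of 3 sires with a low value (8 from sire 16, 5 from sire 17 and 8 from sire 5). The breeding value is that of the sire, the animals had no treatment, and no sire had progeny in both groups, so sire families are nested in muscling. The array was designed on cattle sequences, the sheep RNA may bind probe sets unequally, and the level of 1 probe set cannot be set against that of another. The values are the MAS5 signals deposited by the authors, linear intensities with each array scaled to a trimmed mean of 200.

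Immediate early genes are transcribed within minutes of a growth, stress or mechanical stimulus, without new protein synthesis, and their transcripts are short-lived. FOS and FOSL2 belong to the Fos family and JUN and JUNB to the Jun family, whose basic leucine zipper proteins pair to form the AP-1 transcription factor. A Jun protein can pair with itself, while a Fos protein needs a Jun partner. EGR1 is a zinc finger factor of the same response, ATF3 a stress-induced leucine zipper factor that can pair with Jun proteins, MYC a factor of growth and ribosome synthesis that binds DNA with MAX, and IER2 a nuclear protein named for its early induction. In skeletal muscle, FOS, JUN and EGR1 transcripts are known to rise after exercise and injury.

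The arrays were alike in scale, with a median signal between 56.1 and 67.1, and any pair of arrays had a Pearson correlation between 0.902 and 0.963 over the detected genes. The summed signal of 8 skeletal muscle fibre markers lay between 163236 and 219532 in all animals, with all 8 detected, and differed by 0.02 on the log2 scale between the muscling groups. The summed signal of 7 fibroblast markers, all detected, was lower in high muscling, by 0.65 on the log2 scale in the mean (5449 to 13027 in high muscling and 8363 to 25006 in low muscling). The summed signal of 7 macrophage and neutrophil markers, of which 4 were detected, was lower by 0.68 (435.3 to 1015 and 512.6 to 1777). Sums were also lower for the 4 adipocyte markers measured (-0.41, 3 detected, 173.8 to 3179 and 278.0 to 4115), 7 endothelium markers (-0.28, 6 detected, 1755 to 2831 and 2150 to 3538) and 5 smooth muscle markers (-0.26, all detected, 3884 to 6470 and 4069 to 7830). The brightest probe sets weigh most in each sum. Single markers with a higher log2 mean in high muscling were 1 of 7 for fibroblasts and 1 of 7 for macrophages and neutrophils. They were 0 of 4 for adipocytes, 2 of 7 for endothelium and 2 of 5 for smooth muscle. In whole muscle, fewer cells of a type and less RNA per cell cannot be told apart.

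FOSL2 (gene 509889), which encodes the Fos family protein Fra-2, gave signals around the detection limit. Its main probe set, the one used here, averaged 63.3 ± 33.5 (SD, n = 40), and 20 of the 40 animals lay at or above the detection limit. In high muscling its signal had a lowest value of 48.0, a median of 79.7 and a highest value of 138.3. In low muscling it had a lowest value of 3.4, a median of 44.3 and a highest value of 86.8. The groups overlapped between 48.0 and 86.8, with 7 of the 19 high muscling animals above every low muscling animal and 13 of the 21 low muscling animals below every high muscling animal. Below the detection limit were 3 high muscling and 17 low muscling animals.

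By sire family, FOSL2 was highest in the progeny of sire 11, with a lowest signal of 62, a median of 103.2 and a highest of 125.8, and none of the 8 lay under the limit. The 7 progeny of sire 2 spanned 48.0 to 86.2, with a median of 67.6. The 4 progeny of sire 7 had FOSL2 signals of 52.9, 62.3, 109.7 and 138.3, the latter the highest of all animals. The high muscling families thus covered a narrow range on the log2 scale, with means of 6.56, 6.08 and 6.39.

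In the low muscling families, the 8 progeny of sire 16 had FOSL2 signals from 13 to 86.8, with a median of 55.8. The 5 progeny of sire 17 had 20.3, 29.5, 48.1, 65.3 and 86.0. The 8 progeny of sire 5 had 3.4 to 44.3, with a median of 27.6, so all of them lay under the detection limit and below every high muscling animal. The mean log2 signals of the 3 families were 5.64, 5.45 and 4.27.

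**Figure D1:**
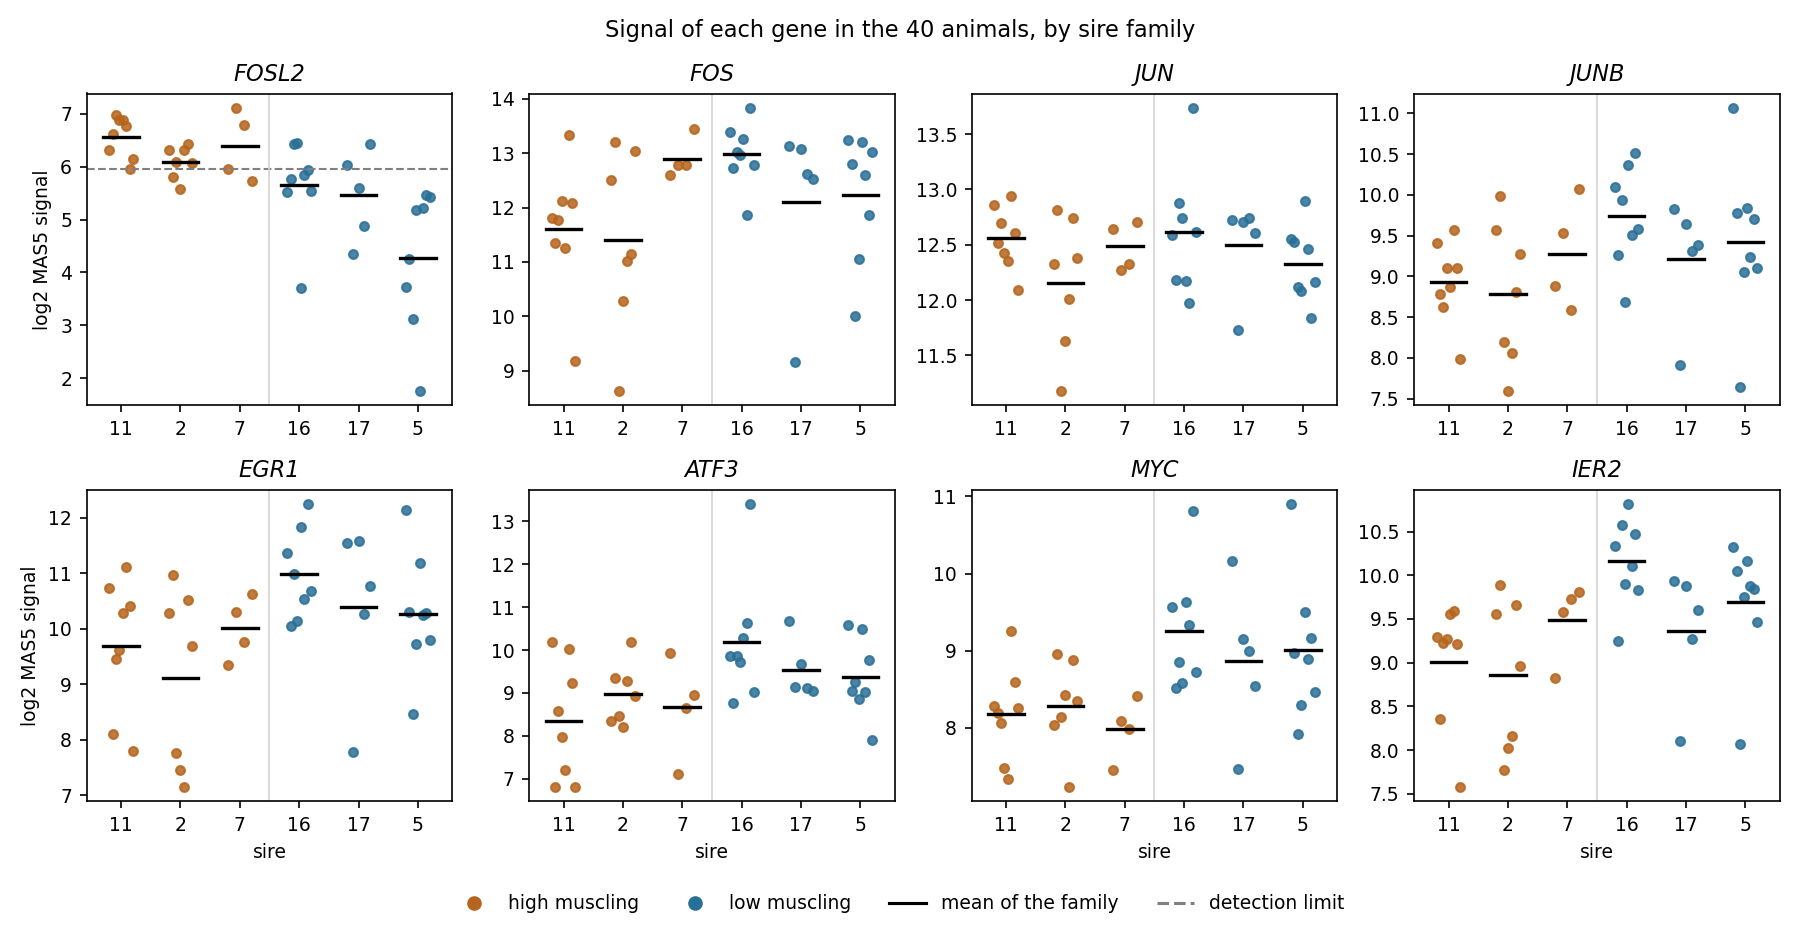
Signal of each of the 8 genes in the 40 animals (log2 MAS5 signal, a scale of its own in each panel) by sire family, with high muscling families left of the grey line, low muscling families right of it, a point per animal, a bar at the family mean and, for FOSL2, the detection limit as a dashed line. FOSL2 had all 3 high muscling means above the 3 low muscling means, beside 7.85% of all detected genes. EGR1, ATF3 and MYC had them all below, beside 11.4%. The contrast was known at selection.

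The other FOSL2 probe sets did not show the pattern of the main one. The next brightest averaged 28.7 ± 18.2 (SD, n = 40), with 1 animal at or above the detection limit. Its log2 signal in high minus low muscling was 0.20, against 1.28 for plain group means of the main probe set, and it correlated with the main probe set with a Pearson r of 0.12 over the 40 animals. The dimmest averaged 13.5 ± 10.6, with no animal at or above the limit, a difference of -0.27 and an r of -0.07 with the main probe set. All 3 carry the FOSL2 symbol in the annotation, 2 of them lie below the limit throughout or nearly so, and the FOSL2 values in the text rest on the single remaining one.

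**Figure D2:**
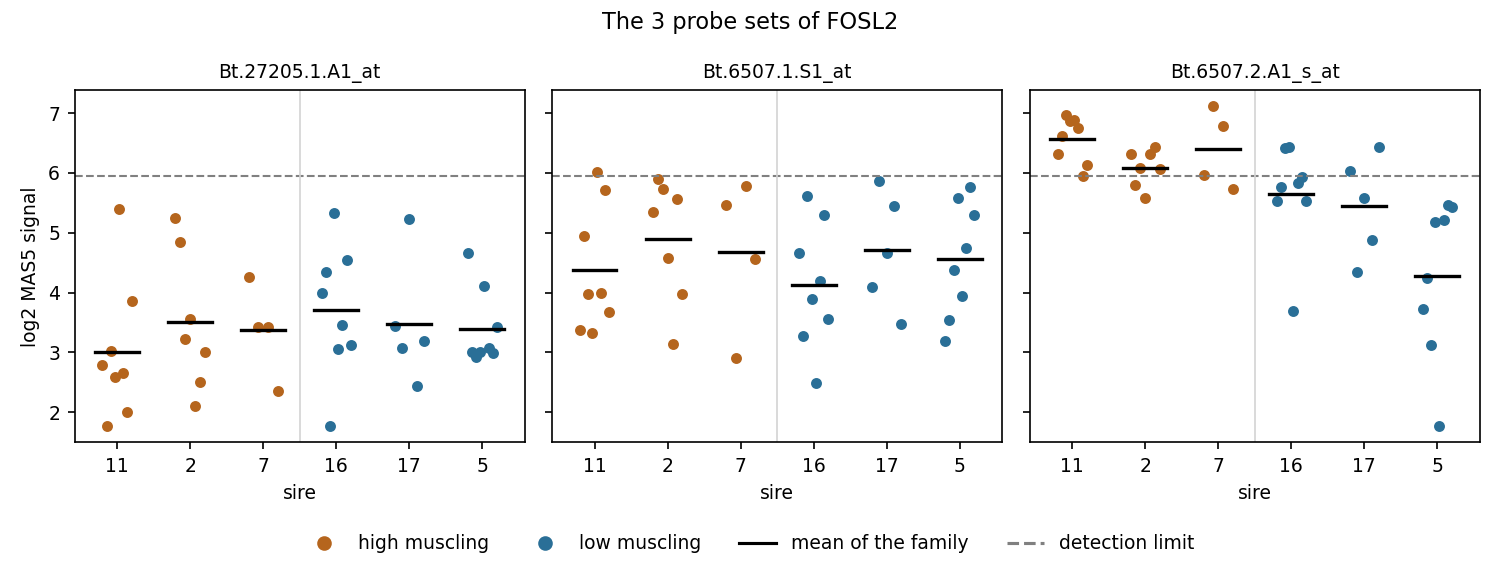
The 3 probe sets of FOSL2 (log2 MAS5 signal) in the 40 animals by sire family, with a point per animal, a bar at the family mean and the detection limit as a dashed line. Only the main probe set, on the right, reached the limit in more than 1 animal (20 of 40), and the other probe sets had differences between muscling groups of 0.20 and -0.27.

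FOS (gene 280795), the founding member of the Fos family, averaged 6005 ± 3476 (SD, n = 40) in signal. Its signal had a lowest value of 395.6, a median of 4347.5 and a highest of 11200.6 in high muscling. The lowest, median and highest signals were 567.9, 7131.8 and 14634.1 in low muscling. The groups overlapped over nearly the whole range, with 1 low muscling animal above every high muscling animal. By family, the 4 progeny of sire 7 had FOS signals of 6197.8, 7002.2, 7051.2 and 11200.6. The median was 3534.8 in the progeny of sire 11 and 2264.6 in those of sire 2, so the high muscling families differed among themselves. A second FOS probe set, with a mean of 1152, followed the main one with an r of 0.987.

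JUN (gene 280831), the partner of Fos proteins in AP-1, averaged 5808 ± 1847 (SD, n = 40) in signal and varied least. Its lowest, median and highest signals were 2318.9, 5504.4 and 7871.9 in high muscling. They were 3394.4, 6005.6 and 13679.9 in low muscling, the highest being a single animal of sire 16. The groups could not be separated by JUN, with 13 of 21 low muscling animals above the high muscling median. Of its 4 other probe sets, 3 were detected, with means of 966, 539 and 270.2, and correlated with the main one with r of 0.92, 0.86 and 0.81, while the fourth, with a mean of 28.0, had an r of 0.21.

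JUNB (gene 514246), a Jun protein that is a weaker activator than JUN in AP-1, had a mean signal of 692 ± 380 (SD, n = 40) on its single probe set. In high muscling its lowest, median and highest signals were 193.4, 473.1 and 1074.8. In low muscling they were 200.3, 766.8 and 2152.2, with 4 of 21 animals above every high muscling animal and 18 of 21 above the high muscling median. The median was highest in the progeny of sire 16 (872.6) and lowest in those of sire 2 (447.4).

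EGR1 (gene 407125), a zinc finger factor induced through serum response factor, had a mean signal of 1482 ± 1111 (SD, n = 40). Its lowest, median and highest signals in high muscling were 142.0, 869.3 and 2212.9. In low muscling they were 220.1, 1489.7 and 4857.3. Low muscling animals reached higher, 7 of 21 being above every high muscling animal, and 3 of 19 high muscling animals were below every low muscling animal. The log2 family means were 9.69, 9.12 and 10.01 for sires 11, 2 and 7 and 10.98, 10.39 and 10.27 for sires 16, 17 and 5, with no overlap of the family means and a wide overlap of the animals. Of all detected genes, 11.4% had the high muscling family means all below the low muscling ones. A second EGR1 probe set had a mean of 155.5, a difference between plain group means of -0.34 against -1.02 for the main one, and an r with the main one of 0.40.

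IER2 (gene 525380) averaged 790 ± 369 (SD, n = 40) in signal. Its lowest, median and highest signals were 190.7, 619.9 and 950.0 in high muscling. They were 269.2, 939.6 and 1802.1 in low muscling. The number of low muscling animals above every high muscling animal, 10 of 21, was the largest for the 7 members other than FOSL2. The 8 progeny of sire 16, which had a median of 1197.8, were high, and the 5 progeny of sire 17 had 275.6, 617.0, 776.4, 938.5 and 980.2, close to the high muscling families. Of its other probe sets, 1 was detected (mean 159.5, r with the main one 0.65) and 1 was near 0 (mean 6.23).

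ATF3 (gene 515266) had a mean signal of 934 ± 1656 (SD, n = 40), with the SD above the mean and 1 animal of sire 16 at 10817.7. Its lowest, median and highest signals in high muscling were 111.8, 403.4 and 1172.6. In low muscling they were 240.2, 811.0 and 10817.7. Of the low muscling animals, 6 of 21 lay above every high muscling animal and 20 of 21 above the high muscling median. The 5 progeny of sire 17 had ATF3 signals of 531.2, 558.3, 561.5, 811.0 and 1640.3, and the 4 progeny of sire 7 had 138.8, 403.4, 493.7 and 983.2.

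MYC (gene 511077) had a mean signal of 484 ± 378 (SD, n = 40). Its lowest, median and highest signals were 149.8, 290.8 and 609.6 in high muscling. They were 176.5, 498.7 and 1913.8 in low muscling. MYC was the member whose high muscling families lay closest to each other, with log2 means of 8.18, 8.29 and 7.98, below the 9.25, 8.86 and 9.01 of the low muscling families. Such an order of the family means was found in 11.4% of all detected genes. Above every high muscling animal were 7 of the 21 low muscling animals, and 19 of 21 were above the high muscling median.

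High and low muscling were then compared with limma on log2 signals, with sire as a random block, and the values of the members describe the comparison that was known when they were selected. FOSL2 had a difference of 1.25 ± 0.37 (log2, SE) in high minus low muscling and the other 7 had negative differences. For FOSL2, 17 of the 21 low muscling animals lay under the detection limit, so the size of its difference is uncertain. It was 1.11 with a floor at the 20th percentile of all signals, and the ratio of the group medians was 1.80. The differences were -1.05 ± 0.47 for ATF3, -0.99 ± 0.51 for EGR1, -0.89 ± 0.31 for MYC and -0.68 ± 0.30 for IER2. Those of the AP-1 subunits were -0.58 ± 0.53 for FOS, -0.51 ± 0.32 for JUNB and -0.08 ± 0.19 for JUN. The median over the 8 was -0.63, beside -0.04 over all detected genes. Quantile normalization, which turned the sign of JUN to 0.01, left 6 of 8 lower.

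At an adjusted p under 0.05, 1 of the 8 members was called higher in high muscling (FOSL2) and 0 were called lower, beside 2.28% of the detected genes called higher (145 of 6360) and 5.50% called lower (350 of 6360). The call of FOSL2 cannot be read as a test, since the contrast was known and the gene passed the detection limit through high muscling. With each array centred on its median, 93 genes were called higher and 564 lower. FOSL2 was called in 8 of 15 settings of the fit, and was not called when the probe sets of a gene were averaged (difference 0.40), when the 6 sire means were used as samples, or without the progeny of sire 11, 16, 2, 5 or 7. Among the others, MYC was called lower in 4 of the 15 settings (median centring, no block, without sire 17, and without progeny 71 of sire 17 and progeny 65 of sire 16), IER2 in 2, EGR1 and ATF3 in 1 each, and FOS, JUN and JUNB in 0. Without sire 5 the FOSL2 difference was 0.79. All 3 high muscling family means lay above all 3 low muscling ones for 1 member (FOSL2), beside 7.85% of the detected genes, and below them for 3 members (EGR1, ATF3 and MYC), beside 11.4%. With 3 families against 3, the smallest two-sided p of an exact permutation of sires is 0.1.

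**Figure D3:**
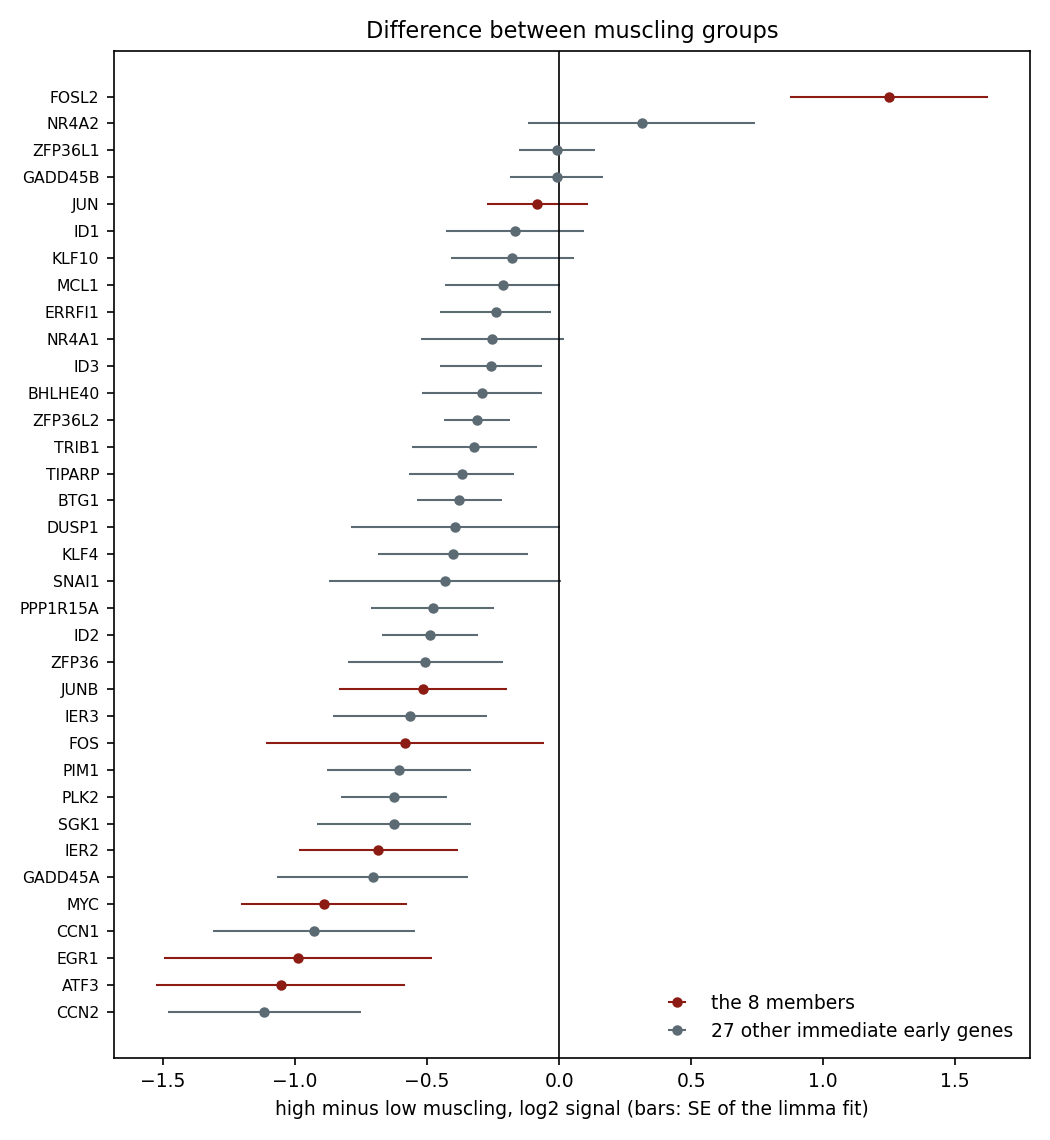
Difference in log2 signal between high and low muscling (points, with the SE of the limma fit as bars) for the 8 members and for 27 detected genes of a list of other immediate early genes, ordered by the difference. FOSL2 stood at 1.25, the other members between -1.05 and -0.08, and 26 of the 27 other genes were below 0.

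Differences between families inside a muscling group are a separate contrast from that of high with low muscling, which was known at selection, and they were tested for every gene with limma's moderated F test over the families. None of the 8 members was called at an adjusted p under 0.05 (0 of 8), beside 22.0% of the detected genes (1402 of 6360). At an unadjusted p under 0.05 there was 1 of the 8, beside 2267 of the 6360 genes. FOSL2 had the lowest adjusted p of the 8, 0.0555 (limma F test). Its mean in the progeny of sire 5 minus that of sire 16 was -1.38 ± 0.40 (log2, SE), and it was 1.18 ± 0.45 higher in those of sire 17 than in those of sire 5. All 8 progeny of sire 5, 6 of 8 of sire 16 and 3 of 5 of sire 17 were under the detection limit. The sizes of these differences and the adjusted p of FOSL2 are thus uncertain too. Among the high muscling families its largest difference was -0.48 ± 0.41, for sire 2 minus sire 11. These SEs and the F test rest on 1 spread shared by all families. The log2 SD of FOSL2 was 0.38 in the progeny of sire 11 and 0.30 in those of sire 2. It was 1.33 in those of sire 5, so the shared spread is too wide for some families and too narrow for others.

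The adjusted p of FOSL2 in this F test passed the threshold under quantile normalization (0.0460), with each array centred on its median (0.0474), without progeny 71 of sire 17 (0.0369) and without that animal and progeny 65 of sire 16 (0.0479), and it was 0.670 when its probe sets were averaged. The range over the settings was thus 0.0369 to 0.670, and no call of FOSL2 is read from any of them. Single animals were left out only from the progeny of sires 7 and 17. The dependence on single animals of the other families was not tested. For IER2 and FOS the adjusted p was 0.291 and 0.297. The FOS mean was 1.49 ± 0.73 (log2, SE) higher in the progeny of sire 7 than in those of sire 2. For JUN, ATF3, EGR1, JUNB and MYC the adjusted p was between 0.427 and 0.887, which does not show that these families had equal levels.

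The members varied more between animals than most genes did, JUN by the smallest margin. The SD of the log2 signal over the 40 animals was 1.28 for both FOS and EGR1, 1.22 for ATF3 and 1.12 for FOSL2, beside a median of 0.38 over the detected genes, and 98.6% to 99.7% of the detected genes had a lower SD than these 4. For MYC, IER2 and JUNB the SD was 0.84, 0.79 and 0.78, above that of 91.3% to 93.4% of the genes. JUN had an SD of 0.44, above 62.6% of the genes. Sire families accounted for 52.4% of the variance of FOSL2 and for 13.9% (JUN) to 34.8% (IER2) of that of the other members, with a median of 25.9% over the detected genes. These shares include the difference between the muscling groups that was known at selection, which alone made up 33.2% for FOSL2, 0.887% (JUN) to 28.6% (MYC) for the others and 5.44% for the median gene. FOSL2 signals lay around the detection limit, and the part of this in their spread was not tested.

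The next comparison asked which members varied together from animal to animal inside families. The mean of each sire family was taken off the log2 signals, so that differences between sires and between muscling groups do not enter, and the 28 pairs of members were tested by 100000 permutations of the animals within families (two-sided, Benjamini-Hochberg adjusted over the 28 pairs). All 21 pairs among FOS, JUN, JUNB, EGR1, ATF3, MYC and IER2 were positive and passed at an adjusted p under 0.05, with Pearson's r and with Spearman's rho. Their r ranged from 0.355 to 0.912, with a median of 0.614. The 7 pairs that held FOSL2 had r between -0.191 and 0.148, with a median of 0.01, and none passed (0 of 7, and 0 of 7 by rho).

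EGR1 and IER2 had the highest correlation, with r of 0.912 (permutation p = 1e-05, the smallest the permutations can give, adjusted 3.11e-05) and rho of 0.911, and r of 0.904 without the 2 animals farthest from the median. JUNB, the next in order, had r of 0.889 with EGR1 and 0.826 with IER2. FOS followed EGR1 with r of 0.801, IER2 with 0.795, JUNB with 0.784 and JUN with 0.742. These 5 genes with r from 0.584 (JUN and JUNB) upwards span 3 protein families, Fos, Jun and zinc finger, and IER2.

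MYC correlated with JUNB (r of 0.721) and EGR1 (0.712) more closely than with JUN (0.528) and FOS (0.533). The 3 lowest of the 21 values were pairs of ATF3, whose highest r was with MYC (r of 0.606) and JUN (0.597). The lowest of the 21 was FOS with ATF3, with r of 0.355 (permutation p = 0.0117, adjusted 0.0156), rho of 0.355 (adjusted 0.0347) and r of 0.369 without the 2 farthest animals. The 95% interval of that r was 0.02 to 0.62, and that of EGR1 with IER2 was 0.83 to 0.96.

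**Figure D4:**
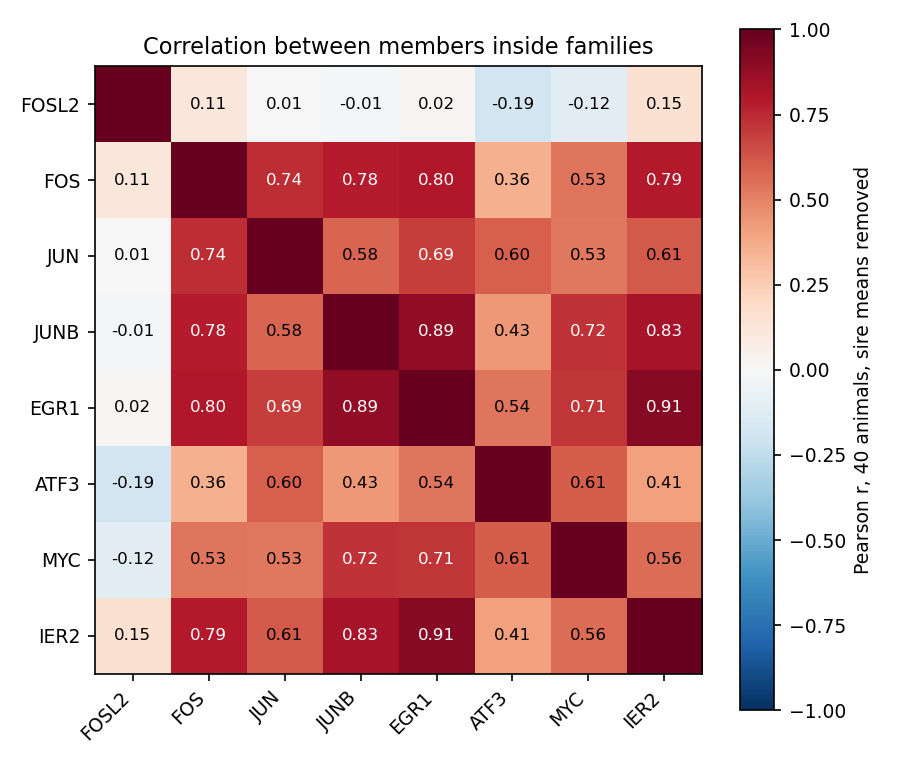
Pearson r between the log2 signals of the 8 members over 40 animals, with the mean of each sire family removed, as a colour from -1 (blue) to 1 (red) and as the printed value. The 21 pairs without FOSL2 lay between 0.36 and 0.91, and the FOSL2 row lay between -0.19 and 0.15.

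The intervals of the FOSL2 correlations were wide. Its r was 0.02 with EGR1 (95% interval -0.31 to 0.35), 0.11 with FOS (-0.23 to 0.43), 0.01 with JUN (-0.33 to 0.34) and -0.01 with JUNB (-0.35 to 0.32). With ATF3 it was -0.19 (-0.49 to 0.15), with MYC -0.12 (-0.43 to 0.23) and with IER2 0.15 (-0.19 to 0.46). Moderate correlations of either sign thus remain within the intervals, and r of FOSL2 with IER2 was 0.390 without the 2 farthest animals. With all 40 animals, the 7 upper bounds lay below the 0.614 that was the median of the other pairs. Those with FOS (0.43) and IER2 (0.46) lay above 0.355, the lowest r of the other pairs. No interval was computed without the 2 farthest animals. Of the 40 animals, 20 had FOSL2 below the detection limit, and the part of this in the low correlations was not tested.

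**Figure D5:**
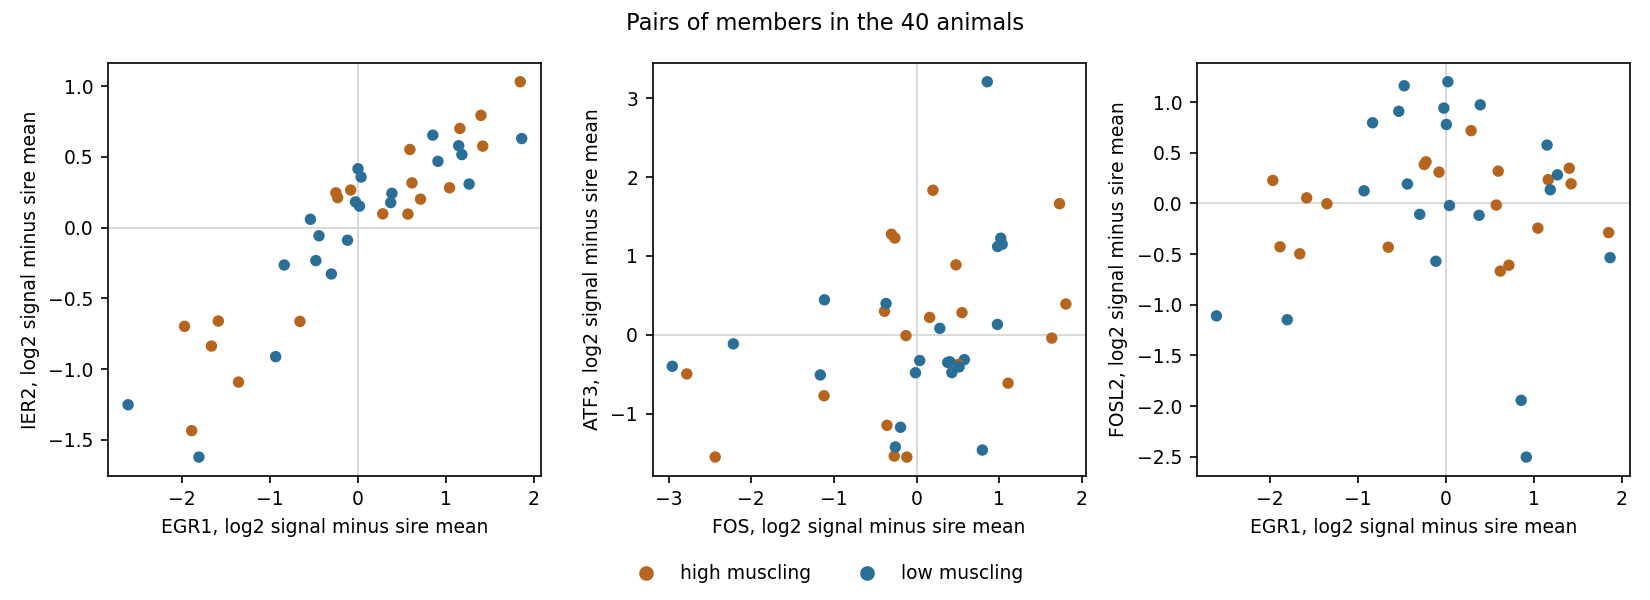
Log2 signal minus the mean of the sire family in the 40 animals for 3 pairs, EGR1 with IER2 (left, r = 0.912), FOS with ATF3 (middle, r = 0.355) and EGR1 with FOSL2 (right, r = 0.02), with a point per animal coloured by muscling group. Animals of both groups lie along the rising EGR1 and IER2 cloud, and no slope is seen for FOSL2.

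The same animals stood at the ends of several members. Progeny 65 of sire 16 was among the 6 highest animals for all 7 members other than FOSL2, with signals of 14634.1 for FOS, 13679.9 for JUN and 10817.7 for ATF3, the highest of all animals in each, while its FOSL2 signal of 60.8 ranked 20 of 40 from the lowest. Progeny 71 of sire 17 was among the 6 lowest for 6 of the 7, with 567.9 for FOS and 220.1 for EGR1. Its ATF3 signal of 561.5 lay in the middle of its family. Progeny 57 of sire 2 was among the 6 lowest for 6 of the 7, and its FOSL2 signal of 79.3 ranked 27. Without progeny 65 of sire 16 and progeny 71 of sire 17 the median r was 0.602 over the 21 pairs and -0.13 over the 7 pairs with FOSL2.

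Measures of the arrays and of other cell types moved with some members inside families. The median signal of an array, 63.8 in high and 61.5 in low muscling in the mean, had r of -0.363 with FOS, -0.454 with JUN and -0.322 with EGR1, and with each array centred on its median the 21 pairs had a median r of 0.637, against 0.614 as deposited. The summed signal of the endothelium markers had r of 0.512 with IER2, and that of the macrophage and neutrophil markers 0.438 with MYC and 0.395 with EGR1. With FOSL2 the 9 marker sums had r from -0.23 to 0.19. Their part in the differences and correlations of the members was not tested.

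The ratio of 3' to 5' actin signal, a sign of RNA integrity, was -0.04 (log2) in high and -0.004 in low muscling in the mean, and r with the members inside families was between -0.03 and 0.26. For GAPDH the ratio was 0.30 and 0.23, with r between -0.15 and 0.07. For EF1A it was -6.14 and -6.32, with r between -0.08 and 0.27, the highest being with FOSL2. Its mean was -7.00 in the progeny of sire 17 and -6.22 to -6.00 in the other families. With a 3' signal so far below the 5' signal, the EF1A ratio is not read as a sign of RNA integrity. The labels give no date or batch of the arrays, and the minutes between euthanasia and dissection are given only as a maximum, so their part in the levels of these genes was not tested.

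The detected genes whose signal was most like that of FOSL2 inside families were MAP3K12 (r of 0.563), a kinase upstream of JNK, RNF8 (0.503), a ubiquitin ligase of DNA repair, MSX1 (0.484), a homeobox repressor of myogenic differentiation, GARRE1 (0.478) and ATXN10 (0.472). Least like it were RABGEF1 (r of -0.590), LSM1 (-0.579) and TMEM165 (-0.577). Over plain values of the 40 animals the r of MAP3K12 with FOSL2 was 0.370 and it ranked 337 of 6359 genes, so the order of likeness depends on whether family means are removed. These are the extremes of 6359 correlations and are given as a description. FOS, with 0.110, ranked 1552 among the 6359 for likeness to FOSL2.

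For EGR1, a target chosen after its values were seen, genes most like it inside families included IER2, JUNB, APOLD1 (r of 0.867), an early response gene of endothelium, and CCN1 (0.852), a secreted matrix protein. MYC ranked 21, JUN 27 and ATF3 149 of 6359 for likeness to EGR1. At the other end were NDUFV2 (r of -0.698), UQCRC2 (-0.694) and ATP5PO (-0.694), subunits of respiratory complexes I and III and of ATP synthase. For FOS, likewise chosen later, the most like were DUSP1 (0.882), a phosphatase of MAP kinases, and KLF4 (0.829), a zinc finger factor, and the least like were NDUFV2 (-0.757), NDUFA5 (-0.707) and COX5B (-0.704), also of the respiratory chain. Over plain values the r with EGR1 was -0.286 for NDUFV2, -0.412 for UQCRC2 and -0.566 for ATP5PO. With FOS the plain r was -0.359 for NDUFV2, -0.256 for NDUFA5 and -0.295 for COX5B. The r of the most like genes named here changed less.

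Other immediate early genes were followed as a list of 47, of which 30 were on the array with a single symbol and 27 were detected. This list and those below were also chosen with earlier results of these data known. Their differences, adjusted p and calls between muscling groups are thus a description and cannot be read as tests. With the 6 sire means as samples, 0 of the 6360 genes were called. In high muscling 26 of the 27 were lower, with a median difference of -0.38 beside -0.04 over all genes, and NR4A2, an orphan nuclear receptor, was the exception (0.31 ± 0.43). Between 23 and 26 were lower over the 15 settings. Past the threshold were 2 of 27, both lower, beside 5.50% of all detected genes, CCN2, a secreted matrix protein (-1.12 ± 0.36, limma adjusted p = 0.0497), and PLK2, a stress-induced kinase (-0.63 ± 0.20, adjusted p = 0.0454). Both calls were lost without the progeny of sire 16, 2, 5 or 7. Between families inside groups 1 of 27 was called, beside 22.0% of all detected genes, ID3 (adjusted p = 0.0265), an inhibitor of myogenic helix-loop-helix factors. Next in that test was NR4A1, another orphan nuclear receptor (adjusted p = 0.0825).

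Inside families most genes of this list had a positive r with EGR1. With EGR1, 25 of the 27 genes had a positive r, with a median of 0.435 and a range from -0.362 (ZFP36L1) to 0.852 (CCN1), beside a median of -0.02 over all detected genes. With FOSL2, 15 of the 27 were positive, with a median of 0.01, a lowest r of -0.267 (MCL1) and a highest of 0.153 (PIM1). With FOS, 25 of 27 were positive, with DUSP1 highest.

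Of 27 other AP-1 and related leucine zipper factors, 21 were measured and 18 detected, 13 of the 18 lower in high muscling, with a median of -0.10. None was called (0 of 18 by limma, and 2 at an unadjusted p under 0.05, beside 1386 of all 6360 detected genes). The nearest were DDIT3, a stress-induced relative of the C/EBP factors (-0.81 ± 0.29, adjusted p = 0.0739), and FOSL1, which encodes Fra-1, the closest relative of FOSL2 (-0.77 ± 0.38, adjusted p = 0.225). The difference of FOSL1 was opposite in sign to that of FOSL2, and r between them inside families was 0.02. FOSB, also of the Fos family, had the same sign as FOSL2 (0.30 ± 0.24) and an r of -0.13 with it. Nothing is read from these signs. Between families inside groups CREB1 (adjusted p = 0.0290), MAFG (1.18e-04) and NFE2L1 (0.00232) were called, 3 of 18 beside 22.0% of all.

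Of 28 kinases and factors upstream of these genes, 14 were detected, and 12 of the 14 were higher in high muscling. Only CREBBP, 1 of 14 beside 2.28% of all detected genes called higher, an acetyltransferase that binds JUN and FOS among others, was called (0.46 ± 0.10, limma adjusted p = 0.00304), and not without the progeny of sire 16 or 5. Between families inside groups 8 of the 14 were called, beside 22.0% of all, namely the kinases BRAF, MAP2K2, MAPK3, MAP2K4, MAPK8 and RPS6KA3, then CREBBP, and SRF, the factor through which FOS and EGR1 are induced (adjusted p = 0.00451).

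Of 14 partners and antagonists of MYC, 8 were detected and 7 of the 8 were higher, with MLXIP, a glucose-sensing factor that pairs with MLX, called in all 6 fits that left out a sire (0.71 ± 0.13, adjusted p = 7.39e-04) and FBXW7, which marks MYC for degradation, called but lost without sire 11, 16, 2 or 5 (0.44 ± 0.14, adjusted p = 0.0459), 2 of 8 beside 2.28% of all. Between families inside groups 4 of the 8 were called, beside 22.0% of all, FBXW7, MXI1, MLX and MYCBP2.

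Of 24 genes known as targets of AP-1 in other species and cells, 11 were detected and 10 of the 11 were lower in high muscling, with a median of -0.43. Past the threshold were 4 of 11, all lower, beside 5.50% of all. TIMP1, an inhibitor of matrix metalloproteinases, had the smallest adjusted p (-0.92 ± 0.17, limma adjusted p = 7.85e-04, lost without sire 16), and THBS1, a matrix glycoprotein, had -1.40 ± 0.43 (adjusted p = 0.0367). VIM, the intermediate filament of mesenchymal cells, had -0.43 ± 0.11 (adjusted p = 0.0145), and DCN, itself among the fibroblast markers, had -0.37 ± 0.12 (adjusted p = 0.0499). The calls of THBS1 and DCN were lost without sire 16, 2, 5 or 7, and that of VIM without sire 11, 16 or 5. Between families inside groups 3 of the 11 were called, VIM, MMP2 and VEGFA, beside 22.0% of all. The fibroblast marker sum was lower in high muscling too, as given above, and its part in these differences was not tested. Inside families THBS1 followed EGR1 (r of 0.760) and JUNB (0.823), and VIM and DCN did not follow EGR1 (-0.02 and -0.03).

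Of 18 known targets of MYC, 14 were detected, 12 of the 14 lower in high muscling, with a median of -0.14. Called lower were 2 of 14, beside 5.50% of all, HSPE1, a mitochondrial chaperonin (-0.39 ± 0.08, limma adjusted p = 0.00280, lost without sire 16 or 5), and FBL, the nucleolar methyltransferase fibrillarin (-0.33 ± 0.10, adjusted p = 0.0413, lost without sire 16, 17, 2, 5 or 7). Between families inside groups 4 of the 14 were called, NCL, NOP56, POLR1B and EIF4E, beside 22.0% of all. Inside families the 14 had r with MYC from -0.174 (POLR1B) to 0.497 (ODC1), with a median of 0.132 beside -0.02 over all detected genes. ODC1, the first enzyme of polyamine synthesis, also followed EGR1 (r of 0.651) and ATF3 (0.646).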

How the data were processed

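RNA of 40 muscles was measured on 1 array each. The authors deposited MAS5 signals, which are linear intensity values (per the file headers and the labels, without a version of the software); values range from 0.1 to 36463.9 and each array has a mean of 200 after trimming 2% at each end. Present flags were not used. The number of arrays limits the precision. Log2 was taken without further normalization, and genes were represented by the probe set with 1 symbol and the highest mean (24016 probe sets other than controls, 86 with several symbols, left out). limma 3.58.1 (R 4.3.3) was fitted over 6360 genes, for muscling with a random effect of sire (correlation 0.135) and for sires with 6 family means, Benjamini-Hochberg adjusted over all genes. Correlations used Python 3.11.15 and scipy 1.17.1, and their 95% intervals (Fisher) allow for the family means. In data simulated for these fits on 6360 genes, 46% of changes of 0.5 and 85% of changes of 1 (log2) between muscling groups were recovered with 12 calls among unchanged genes, and 87% of changes of 1 and 99% of changes of 2 between families with 9. The changed genes were drawn from all genes, whose median SD inside families was 0.34. The members had 0.44 (JUN) to 1.21 (FOS), so these shares do not carry over to them. The simulation of families held no other sire effect. Members, lists and tests were chosen with earlier results of these data known. The genes named by rule are the members, the list genes called in either fit or lowest in p there (2 per list and fit), and the 5 most and 3 least like FOSL2. Genes named for their correlation with EGR1, FOS, MYC or a list, and NR4A2 and FOSB, were chosen after their values were seen. Alternatives were no detection filter, a floor at the 20th percentile, median centring, quantile normalization and the mean over probe sets. Others were no block, sire means as samples, each sire left out and, added after seeing the data, 2 animals left out. Single animals were left out only in the test between families, and only from the progeny of sires 7 and 17. Progeny of 1 sire share parentage. The animals are separate, and the labels give no other replicate structure. No sequences or coordinates are given.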

Additional observations from a re-analysis of the deposited data

Results flagged for a closer look

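In 6 of 48 combinations of a member and a sire family, 1 animal stood far from the rest of its family on the log2 scale, where chance gives about 1 in 20. The signals below are linear. FOSL2 in the progeny of sire 16 had 13 in progeny 45, while the other 7 had 46.1 to 86.8. That signal lay under the 20th percentile of all signals (14.6), so its log2 distance is uncertain. In the progeny of sire 17, progeny 71 stood apart in this way for 3 members, with 567.9 for FOS (5920.9 to 9031.5 in the others), 3394.4 for JUN (6229.5 to 6842.3) and 241.4 for JUNB (635.8 to 910.8). ATF3 in the progeny of sire 16 had 10817.7 in progeny 65 and 437.3 to 1592.8 in the others. IER2 in the progeny of sire 5 had 269.2 in progeny 32 and 704.8 to 1281.4 in the others. The 6 are not independent, since FOS, JUN and JUNB were low in the same animal.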

How the results depend on the processing

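The comparison of high with low muscling called 495 genes. It called 1586 without the sire block and 0 with the sire means as 6 samples (limma, 886 at an unadjusted p under 0.05). Leaving out 1 sire family gave 23 (without sire 5) to 1221 (without sire 17), with 29 without sire 16, 272 without sire 7, 290 without sire 2 and 685 without sire 11. It called 456 to 657 under the other planned settings and 622 without progeny 71 of sire 17 and progeny 65 of sire 16. The test between families inside groups called 1402 genes, 1172 to 1407 under its planned settings and 1376 without those 2 animals. Of the 112 differences of members between muscling groups under the alternatives, 111 moved by less than the SD between animals inside families. That SD is a lax measure, being larger than the SE of the difference for every member (0.83 against 0.37 for FOSL2). Within it, the FOSL2 difference shrank to 0.79 without sire 5 and the FOS difference to -0.28 without sire 16. The FOSL2 difference moved to 0.40 with probe sets averaged, and that of JUN changed sign (-0.19 to 0.05). The median r of the 21 pairs without FOSL2 was 0.602 to 0.696. That of the 7 pairs with FOSL2 was -0.138 over plain values, -0.122 without sire 17, 0.140 without sire 5 and -0.125 without those 2 animals. The cause of these shifts was not tested. No paired analysis was possible because progeny numbers are unique to an animal. FOSL2 near the detection limit, 6 sires, and 1 probe set for JUNB, ATF3 and MYC limit these values.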
